A study of Mus musculus with 18 samples.

Results

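The subject is the nuclear-encoded subunits of the respiratory chain and ATP synthase in primary mouse cortical astrocytes, measured as total mRNA and as mRNA bound to ribosomes, with and without ethanol. The members are the protein-coding genes whose symbol begins with *Nduf* followed by a, b, c, s or v and a number, the 4 *Sdh* genes, *Cyc1*, and the *Uqcr*, *Cox4* to *Cox8* and *Atp5* genes. This rule uses names only and found 85 of the 51912 genes counted. They comprise 35 genes of complex I, 4 of complex II, 9 of complex III, 20 of complex IV and 17 of complex V, and they lie on 19 chromosomes. *Ndufa4* and *Ndufa4l2*, named for complex I, are counted with complex IV. *Atp5s*, *Atp5sl* and *Cox7a2l* carry these names without being subunits proper, and *Cox7a2l* takes part in the assembly of supercomplexes. A filter of at least 10 reads over all libraries left 84 members, and *Cox7b2*, a testis form of COX7B with 9 reads in 18 libraries, was not tested.

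The respiratory chain sits in the inner mitochondrial membrane. Complex I takes electrons from NADH and complex II from succinate, both pass them to ubiquinone, complex III hands them on to cytochrome c and complex IV to oxygen, and complex V (ATP synthase) makes ATP from the proton gradient that complexes I, III and IV build. Each complex except complex II mixes subunits translated in the cytosol from nuclear genes with subunits translated inside the mitochondrion from mitochondrial DNA. Astrocytes rely strongly on glycolysis but hold a working respiratory chain, and the oxidation of ethanol yields NADH.

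Astrocytes were cultured from the cortex of mice of both sexes at postnatal day 0. The mice were hemizygous offspring of the Aldh1l1-EGFP/Rpl10a line JD130Htz, on a B6;FVB background, bred with C57BL/6J mice. They carry an EGFP-tagged ribosomal protein L10a under the astrocyte *Aldh1l1* promoter, and all groups share this transgene. After 14 days in culture and 6 days in dishes, cells were kept without serum for 24 h and then for another 24 h in medium without ethanol (control) or with 50 mM ethanol. Tagged ribosomes were pulled down (IP, translating RNA) from 6 control and 6 ethanol dishes, and total RNA of the lysate (input) was sequenced for replicates 4 to 6 of each treatment, so 18 libraries came from 12 dishes. Nothing in the sources used here says whether the dishes came from separate cell preparations, so p-values measure the spread between dishes.

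Between 74239854 and 132810705 read pairs were counted on genes per library (median 84119135). Levels are given in CPM, counts scaled to library size with TMM factors. The 10 astrocyte markers summed to more with ethanol, without overlap, at 1799 to 1879.8 CPM in control IP and 1926 to 1999.9 CPM in ethanol IP, and at 1167 to 1212 CPM in control input and 1222 to 1247 CPM in ethanol input (4 higher and 0 lower by the test in the IP, 4 higher and 3 lower in the input). The 8 oligodendrocyte-lineage markers, of which *Mog* and *Sox10* had under 0.1 CPM, summed to less with ethanol, without overlap, at 251 to 270.2 CPM in control IP and 226 to 245 CPM in ethanol IP, and at 155.4 to 173.9 CPM in control input and 149.5 to 155.1 CPM in ethanol input (1 higher and 1 lower in the IP, 2 higher and 1 lower in the input). The 8 microglia markers summed to more with ethanol in the input, without overlap, at 49.6 to 52.6 CPM in control and 54.1 to 64.3 CPM in ethanol. In the IP they overlapped, at 7.82 to 8.79 CPM in control and 8.42 to 11.1 CPM in ethanol. By the test, 2 were higher and 0 lower in the input, and 1 higher and 0 lower in the IP. Markers of endothelial and mural cells, of which 2 of 7 tested were lower with ethanol in each fraction, summed to 1630 to 1763 CPM in control IP and 1054 to 1250 CPM in ethanol IP, and to 1301 to 1371 CPM in control input and 900.2 to 967.7 CPM in ethanol input. These endothelial and mural sums were higher in the IP than in the input under both treatments (3 markers higher and 3 lower by the test). Sums of the 8 neuron markers overlapped between treatments, at 215 to 230 CPM in control IP and 207 to 224 CPM in ethanol IP. Those of the 7 fibroblast and meningeal markers did too, at 1661 to 1697 and 1525 to 1770 CPM. Both lists also overlapped in the input. The part of these marker lists in the ethanol results of the members was not tested. In bulk RNA, fewer cells of a type and less RNA per cell cannot be told apart.

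Nearly all members were well expressed. Of the 84 members, 79 had a mean of at least 1 CPM, and their median level was 49.9 CPM per kb of exon, averaged over the 18 libraries. By complex, the median level per kb was 47.8 CPM in complex I, 59.5 in complex II, 59.2 in complex III, 81.1 in complex IV and 48.0 in complex V. Per kb of all annotated exons, the highest level was that of *Cox8a*, a small subunit of complex IV, at 299 ± 37.8 CPM per kb (SD, n = 18). In complex V the highest was *Atp5a1*, the alpha subunit of the catalytic head, at 222 ± 26.6 CPM per kb, and in complex I *Ndufa13*, an accessory subunit, at 154.7 ± 16.3 CPM per kb. In complex III the small subunit *Uqcr11* stood at 150.9 ± 12.1 CPM per kb and in complex II the flavoprotein *Sdha* at 80.2 ± 9.98 CPM per kb. Some of these ranks depend on the length used. Per kb of the principal transcript, *Atp5b* (398 CPM per kb) and *Cox4i1* (361 CPM per kb) lay above *Cox8a* (337 CPM per kb), and the highest in complexes I and III were *Ndufa7* (249 CPM per kb) and *Uqcrh* (279.5 CPM per kb), while *Sdha* stayed the highest in complex II.

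Per kb of all annotated exons, the lowest levels were those of *Ndufb2* in complex I (0.972 ± 0.221 CPM per kb), *Sdhb* in complex II (41.7 ± 2.16), *Cyc1*, the cytochrome c1 gene, in complex III (37.4 ± 2.87) and *Atp5l*, subunit g, in complex V (1.40 ± 0.154 CPM per kb). Per kb of the principal transcript, *Ndufb2* and *Cyc1* stayed the lowest of their complexes, but *Sdhc* (50.3 CPM per kb) lay below *Sdhb* (81.7 CPM per kb) and *Atp5s* (7.95 CPM per kb) below *Atp5l* (16.6 CPM per kb). The deposited table counts both strands together and leaves out read pairs that fall on more than 1 gene. Counted on the strand of the gene, *Atp5l* went from 9.04 to 58.8 CPM, *Cox5a* from 45.5 to 87.3 CPM and *Ndufb6* from 31.9 to 47.0 CPM, and each of these overlaps a gene on the opposite strand. *Cox4i1*, which overlaps *Emc8* on the opposite strand, had 446 CPM per kb of the principal transcript by strand, above *Atp5b* (384 CPM per kb). *Ndufb2*, at 5.47 CPM and 5.99 CPM by strand, overlaps *Gm42420* on its own strand and *Braf* on the other, so its level is uncertain by either count.

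Several subunits have paralogs known from other tissues, and most of these were barely read. *Cox4i1* held 99.7 ± 0.0926% of the summed *Cox4i1* and *Cox4i2* level per kb in control IP (SD, n = 6), *Cox6a1* held 99.97 ± 0.0230% against the muscle form *Cox6a2*, and *Ndufa4* held 99.7 ± 0.0984% against *Ndufa4l2*. *Cox6a2* had 161 reads in 18 libraries, *Cox8c* 13, and *Cox8b* 12, of which 10 lay in the 6 input libraries. The exception was *Cox6b2*, known as a testis form of COX6B (ENSMUSG00000051811, chr7:4751792-4753094, minus strand, GRCm38), which was read at 61.2 to 70.5 CPM in the input and 61.4 to 75.3 CPM in the IP and held 17.7 ± 0.516% of the *Cox6b* level per kb in control IP. The 3 genes for subunit c of ATP synthase, which encode the same mature protein, were all read, with *Atp5g3* at 57.2 ± 0.873%, *Atp5g2* at 29.2 ± 0.898% and *Atp5g1* at 13.6 ± 0.131% of their summed level per kb in control IP. With the length of the principal transcript, these shares were 68.0 ± 0.876%, 26.4 ± 0.873% and 5.58 ± 0.0576%, and that of *Cox6b2* was 26.2 ± 0.688%.

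The first comparison, IP vs. input, asks which member mRNAs were more or less abundant on tagged ribosomes than in total RNA. Of the 84 members, 25 were higher and 28 lower in the IP (edgeR quasi-likelihood test, adjusted p below 0.05), where 25.2% of all 24495 genes tested were higher and 25.8% lower (34.0% and 29.5% of the 17056 protein-coding genes among them). The median log2 fold change was -0.011 for members and -0.028 for all genes. With library sizes taken as total counts instead of TMM, 13 were higher and 41 lower.

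Large catalytic and core subunits led the members that were higher in the IP. *Ndufv1*, the flavoprotein that oxidises NADH in complex I (ENSMUSG00000037916, chr19:4007384-4012806, minus strand), stood at 80.3, 82.3 and 85.2 CPM in control input, 80.4, 80.0 and 77.1 CPM in ethanol input, and 106, 117 and 122 CPM at the lowest, median and highest of the 12 IP libraries. Every IP library was above every input library, with a log2 difference of 0.52 ± 0.022, adjusted p = 2.42e-32 (± gives the SE here and for all changes). *Ndufs1*, the largest core subunit of complex I, which carries iron-sulfur clusters, stood at 91.3 to 103 CPM in the IP and 67.6 to 73.6 CPM in the input, a log2 fold change of 0.43 ± 0.021 (adjusted p = 1.92e-29).

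*Sdha*, the succinate-oxidising subunit of complex II, stood at 342 to 376 CPM in the IP and 260.2 to 292 CPM in the input (log2 fold change 0.37 ± 0.018, adjusted p = 8.89e-30), and the membrane anchor *Sdhc* had 0.071 ± 0.019 (adjusted p = 0.00106). *Uqcrc1*, a core protein of complex III, stood at 179.8 to 207 CPM in the IP and 144 to 158 CPM in the input (0.39 ± 0.021, adjusted p = 5.89e-27). The catalytic *Atp5a1* and *Atp5b* of complex V had log2 fold changes of 0.36 ± 0.017 (adjusted p = 1.37e-29) and 0.26 ± 0.018 (adjusted p = 1.64e-21). Except for *Sdhc*, whose call was lost with total counts (adjusted p = 0.407), the IP and input libraries of these genes did not overlap. That held for 8 members on the higher side and 11 on the lower side, where the shares of all genes were 13.1% and 11.9%.

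*Cox7a2l* and small subunits led the members lower in the IP. The largest fall among members of at least 1 CPM was that of *Cox7a2l* (ENSMUSG00000024248, chr17:83501918-83517330, minus strand), at 264, 259 and 254 CPM in control input, 272, 264 and 266 CPM in ethanol input, and 145.4, 153.4 and 162 CPM at the lowest, median and highest of the IP libraries. All IP libraries were below all input libraries, with a log2 fold change of -0.77 ± 0.019 (adjusted p = 5.91e-47). *Ndufa6*, an accessory subunit of complex I, stood at 111 to 115 CPM in the input and 74.2 to 82.2 CPM in the IP (-0.56 ± 0.022, adjusted p = 6.45e-35).

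*Atp5e*, the epsilon subunit of ATP synthase, had a log2 fold change of -0.53 ± 0.039 (adjusted p = 5.24e-10) and *Atp5g2* of -0.36 ± 0.024 (adjusted p = 8.97e-22). *Cox7c* of complex IV had -0.43 ± 0.022 (adjusted p = 1.52e-27) and *Uqcrh*, the hinge protein of complex III, -0.39 ± 0.021 (adjusted p = 4.33e-27). None of these genes overlapped between the fractions.

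By complex, 13 of 35 members of complex I were higher and 9 lower, 2 of 4 in complex II were higher and 0 lower, 4 of 9 in complex III were higher and 3 lower, 3 of 19 in complex IV were higher and 10 lower, and 3 of 17 in complex V were higher and 6 lower. The 3 complex IV members that were higher, *Cox5a*, *Cox6b1* and *Ndufa4*, had log2 fold changes of at most 0.085. Within the 6 dishes that gave both an input and an IP library, and with the dish as a block, 20 members were higher and 30 lower.

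Over the 79 members with at least 1 CPM, the log2 fold change of IP vs. input correlated with the log2 length of the principal transcript at a Pearson r of 0.437, across genes that share the same libraries and are not independent replicates. Other protein-coding genes with at least 1 CPM had a median log2 fold change of -0.20 where the longest transcript was under 750 bases (142 genes) and of 0.071 where it was 4000 bases or more (5189 genes). The members had -0.067 in the shortest class (18 members) and 0.031 in the longest (4 members). The part of transcript length in the IP vs. input values was not tested.

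**Figure D1:**
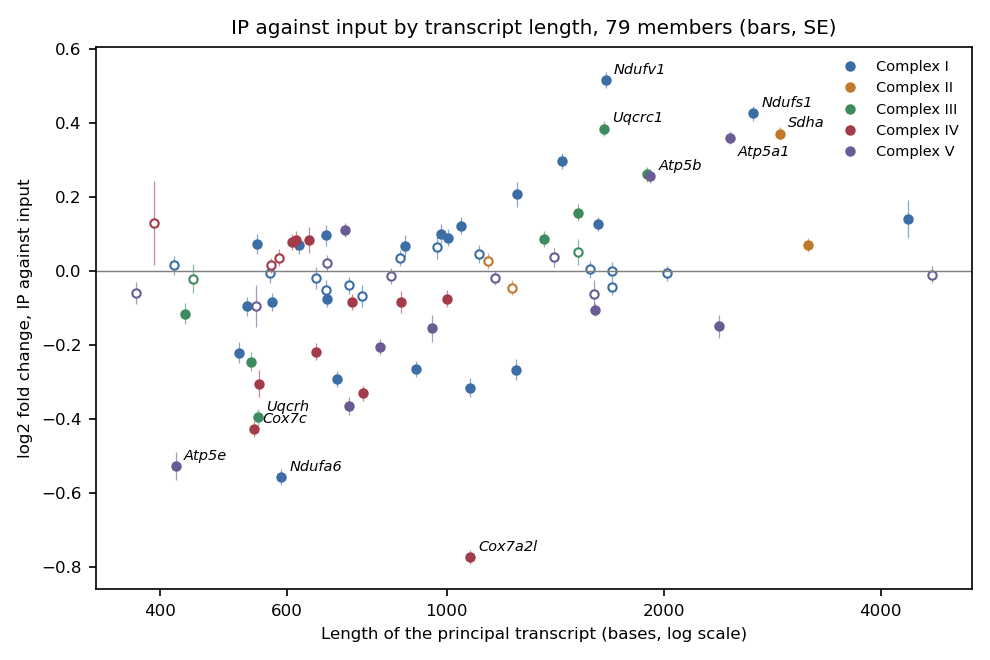
Each point is 1 of the 79 members with at least 1 CPM, placed by the length of its principal transcript (log scale) and its log2 fold change in IP against input (bars, SE), with the complex marked by colour and points filled where the adjusted p is below 0.05. *Ndufv1* has the highest value and *Cox7a2l* the lowest, and the members spread to both sides of 0.

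The 13 subunits encoded in mitochondrial DNA, which are translated inside the mitochondrion, were all lower in the IP, with a median log2 fold change of -4.51.

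The second comparison asks which members ethanol changed in translating RNA. In the IP, 66 of 84 members were downregulated by ethanol and 2 upregulated (edgeR quasi-likelihood test over 12 IP libraries, adjusted p below 0.05), where 9.48% of all 24495 genes tested were downregulated and 11.9% upregulated (12.6% and 16.4% of protein-coding genes). The changes were small: the median log2 fold change was -0.14 for the members, or -9.10%, and 0.0054 for all genes. Among called members, *Ndufb2* and *Cox7a1* had a fitted change of over 1.2-fold, and *Ndufb2* was the 1 member that passed a test against that fold. The fitted change lay below 0 in 78 of 84 members. In 38 members every ethanol library was below every control library and in 2 above, which held for 4.87% and 5.09% of all genes.

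Members of every complex were downregulated, 30 of 35 in complex I, 3 of 4 in complex II, 7 of 9 in complex III, 12 of 19 in complex IV and 14 of 17 in complex V. The median log2 fold changes were -0.13, -0.086, -0.11, -0.16 and -0.14 in that order. The summed level of the members was 9369 ± 203 CPM in control IP and 8626 ± 225 CPM in ethanol IP (SD, n = 6 each). The lowest control library (9077 CPM) was above the highest ethanol library (8855 CPM).

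Each ethanol library shared the shift. Relative to the mean of control IP, the median of the 79 members lay between -0.22 and -0.088 on the log2 scale in the 6 ethanol IP libraries and between -0.045 and 0.046 in the 6 control IP libraries. Ethanol replicate 5 was the lowest of its group for 55 of 79 members and control replicate 5 the lowest of its group for 44. Without ethanol replicate 5, 63 members were downregulated and 3 upregulated.

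**Figure D2:**
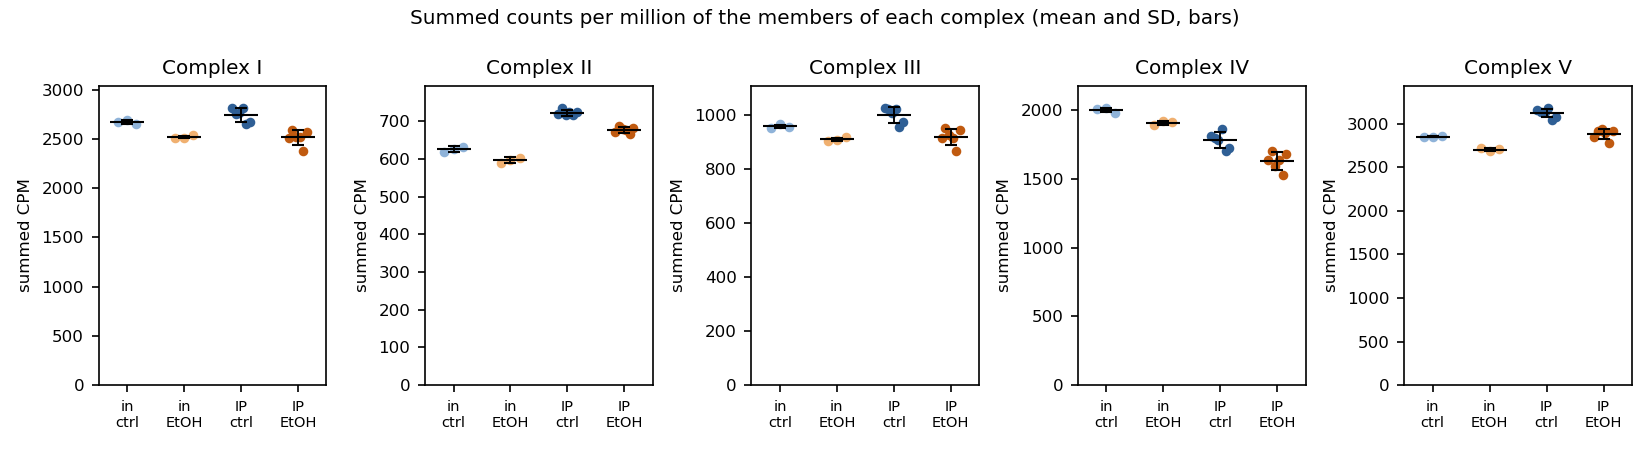
Summed CPM of the members of each complex in every library (points), with mean and SD (bars), by fraction and treatment (in, input; ctrl, control; EtOH, 50 mM ethanol). For all members together, ethanol IP libraries lie at 8218 to 8855 CPM and control IP libraries at 9077 to 9598 CPM.

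In complex I, the largest change among members of at least 10 CPM was that of *Ndufs8*, a core iron-sulfur subunit (ENSMUSG00000059734, chr19:3908863-3912774, minus strand). Its lowest, median and highest level was 67.8, 69.9 and 73.0 CPM in control IP and 57.3, 58.5 and 60.5 CPM in ethanol IP. The groups did not overlap, and the log2 fold change was -0.25 ± 0.027 (adjusted p = 8.18e-11). *Ndufb2*, an accessory subunit of the membrane arm, had 6.36, 6.90 and 7.22 CPM in control IP and 4.28, 4.46 and 4.65 CPM in ethanol IP, again without overlap (-0.61 ± 0.059, adjusted p = 1.77e-12). Counted on its own strand, its log2 fold change was -0.58, and the overlap with other genes limits both values.

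Other core subunits of complex I changed less. *Ndufs1* had a log2 fold change of -0.11 ± 0.024 (adjusted p = 0.000569), *Ndufs7* of -0.12 ± 0.030 (adjusted p = 0.00258), *Ndufv2* of -0.091 ± 0.027 (adjusted p = 0.00946) and *Ndufs3* of -0.080 ± 0.028 (adjusted p = 0.0297). The call of *Ndufs3*, of whose transcript 75.7% matches a pseudogene, was lost without control replicate 1 (adjusted p = 0.0928), ethanol replicate 4 (0.0815) or ethanol replicate 5 (0.0696). *Ndufv1* (-0.055 ± 0.027, adjusted p = 0.152) did not pass the test, but did without ethanol replicate 3 (adjusted p = 0.0182).

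In complex II, *Sdhb*, the iron-sulfur subunit (chr4:140961203-140979193, plus strand), stood at 95.5, 98.0 and 102 CPM (lowest, median, highest) in control IP and 84.2, 90.4 and 94.9 CPM in ethanol IP. The groups did not overlap, with a log2 fold change of -0.13 ± 0.027 (adjusted p = 0.000200). *Sdha* (-0.081 ± 0.022, adjusted p = 0.00394) and *Sdhc* (-0.092 ± 0.024, adjusted p = 0.00250) were downregulated too. The other membrane anchor, *Sdhd*, had -0.048 ± 0.026 (adjusted p = 0.204) and passed without ethanol replicate 2 (adjusted p = 0.0422).

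In complex III, *Uqcrq*, a small subunit that binds ubiquinone, stood at 109, 119 and 125 CPM in control IP and 92.8, 99.4 and 110.3 CPM in ethanol IP. The groups overlapped at their edges, with a log2 fold change of -0.22 ± 0.042 (adjusted p = 0.000857). *Uqcr11* changed by -0.20 ± 0.047 (adjusted p = 0.00606) and *Cyc1* by -0.12 ± 0.028 (adjusted p = 0.00109). The Rieske protein *Uqcrfs1* (-0.029 ± 0.027, adjusted p = 0.531) and *Uqcrc1* (-0.053 ± 0.026, adjusted p = 0.142) did not pass, although *Uqcrc1* did without ethanol replicate 3 (adjusted p = 0.0292).

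In complex IV, *Cox5a* (chr9:57521274-57532426, plus strand) stood at 47.9, 49.3 and 51.7 CPM in control IP and 39.2, 43.7 and 46.6 CPM in ethanol IP. The groups did not overlap, with a log2 fold change of -0.19 ± 0.033 (adjusted p = 9.17e-06). *Cox7a1*, the heart and muscle form of COX7A, was low, at 1.41 ± 0.261 CPM in control IP and 1.002 ± 0.110 CPM in ethanol IP (SD, n = 6), with -0.48 ± 0.12 (adjusted p = 0.00254). The ubiquitous forms *Cox4i1* (-0.098 ± 0.025, adjusted p = 0.00203), *Cox7a2* (-0.19 ± 0.028, adjusted p = 2.52e-07) and *Cox7b* (-0.18 ± 0.029, adjusted p = 2.47e-06) were downregulated as well. The call of *Cox8a* was lost without control replicate 2 or without ethanol replicate 1, 3 or 5 (adjusted p = 0.0571 to 0.0809).

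*Cox6b2* went the other way from its ubiquitous paralog. *Cox6b1* (chr7:30616861-30626151, minus strand) stood at 182, 190.3 and 204 CPM in control IP and 152.8, 166.9 and 176 CPM in ethanol IP, lower in every ethanol library (-0.19 ± 0.028, adjusted p = 6.23e-07). *Cox6b2* stood at 61.4, 64.5 and 66.8 CPM in control IP and 66.8, 73.2 and 75.3 CPM in ethanol IP, higher in every ethanol library (0.17 ± 0.029, adjusted p = 8.28e-06). No exon of another gene overlaps *Cox6b2*, and no match of at least 100 bases at 95% identity was found in other annotated transcripts.

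The share of *Cox6b2* in the *Cox6b* level per kb was 17.7 ± 0.516% in control IP and 21.6 ± 0.505% in ethanol IP (exact two-sided permutation test, p = 0.00216, the smallest the design allows; 0.00541 adjusted over 5 shares). With the length of the principal transcript it was 26.2 ± 0.688% and 31.3 ± 0.642%, again without overlap. In the input it was 18.8 ± 0.147% and 21.4 ± 0.148% (exact permutation p = 0.1, the smallest possible with 3 against 3). In both fractions *Cox6b1* was lower and *Cox6b2* higher in every ethanol library. The share therefore had to separate, and these p-values add no support to the calls of the genes. The share of *Cox7a2l* among the 3 *Cox7a* genes was 56.3 ± 0.678% in control IP and 60.6 ± 0.957% in ethanol IP (exact two-sided permutation test, p = 0.00216, adjusted 0.00541). In the input it was 66.5 ± 0.530% and 68.6 ± 0.865% (exact permutation p = 0.1, the smallest possible). *Cox7a2* was at 69.6 to 75.9 CPM in control IP and lower, at 59.8 to 66.1 CPM, in every ethanol IP library. A fall of *Cox7a2* alone raises this share, so these p-values add no support to a change of *Cox7a2l*. *Cox7a2l* itself had a log2 fold change of 0.062 ± 0.025 (adjusted p = 0.0677) and passed without ethanol replicate 5 (adjusted p = 0.00731). For *Cox4i2*, *Ndufa4l2* and *Atp5g2* the shares gave exact permutation p = 0.387, 0.682 and 0.143 in the IP.

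**Figure D3:**
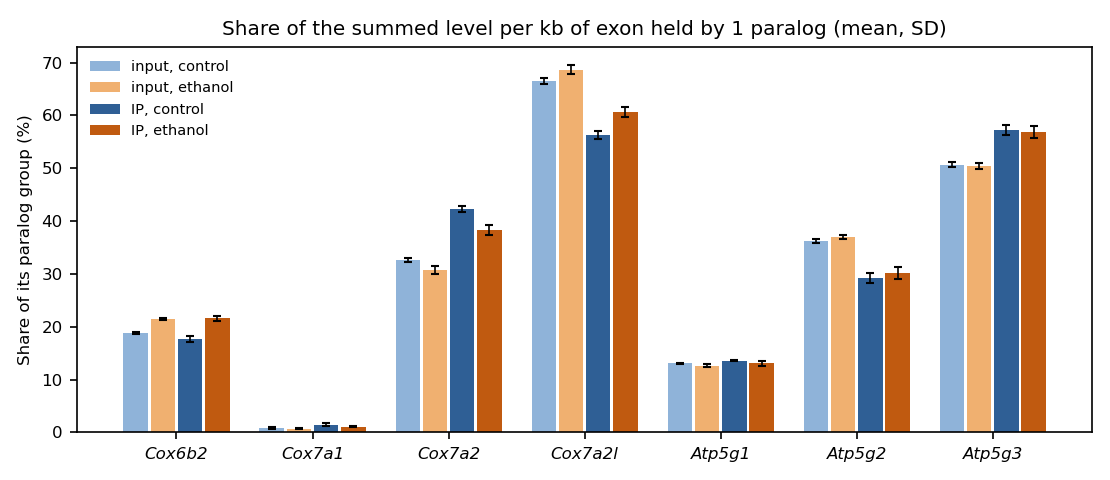
Share (%) of the summed level per kb of exon held by members of paralog groups, as bars for the mean with error bars for the SD over the 3 input or 6 IP libraries of each treatment. *Cox6b2* is at 17.7% in control IP and 21.6% in ethanol IP.

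In complex V, *Atp5k*, subunit e of the membrane part (chr5:108433244-108434448, minus strand), stood at 44.9, 47.2 and 49.3 CPM in control IP and 36.4, 39.8 and 44.6 CPM in ethanol IP. The groups did not overlap, with a log2 fold change of -0.23 ± 0.034 (adjusted p = 5.55e-07). *Atp5e* had -0.22 ± 0.041 (adjusted p = 0.000419) and *Atp5g1* -0.19 ± 0.028 (adjusted p = 5.81e-07). The abundant subunits of the catalytic head changed less, *Atp5b* (beta) by -0.087 ± 0.022 (adjusted p = 0.00233), *Atp5c1* (gamma) by -0.077 ± 0.024 (adjusted p = 0.0116) and *Atp5a1* by -0.068 ± 0.022 (adjusted p = 0.0171). The other upregulated member was *Atp5sl*, which is counted with complex V by its name only and is not a subunit proper. It stood at 19.9 ± 0.584 CPM in control IP and 21.7 ± 1.09 CPM in ethanol IP (0.13 ± 0.037, adjusted p = 0.00645).

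**Figure D4:**
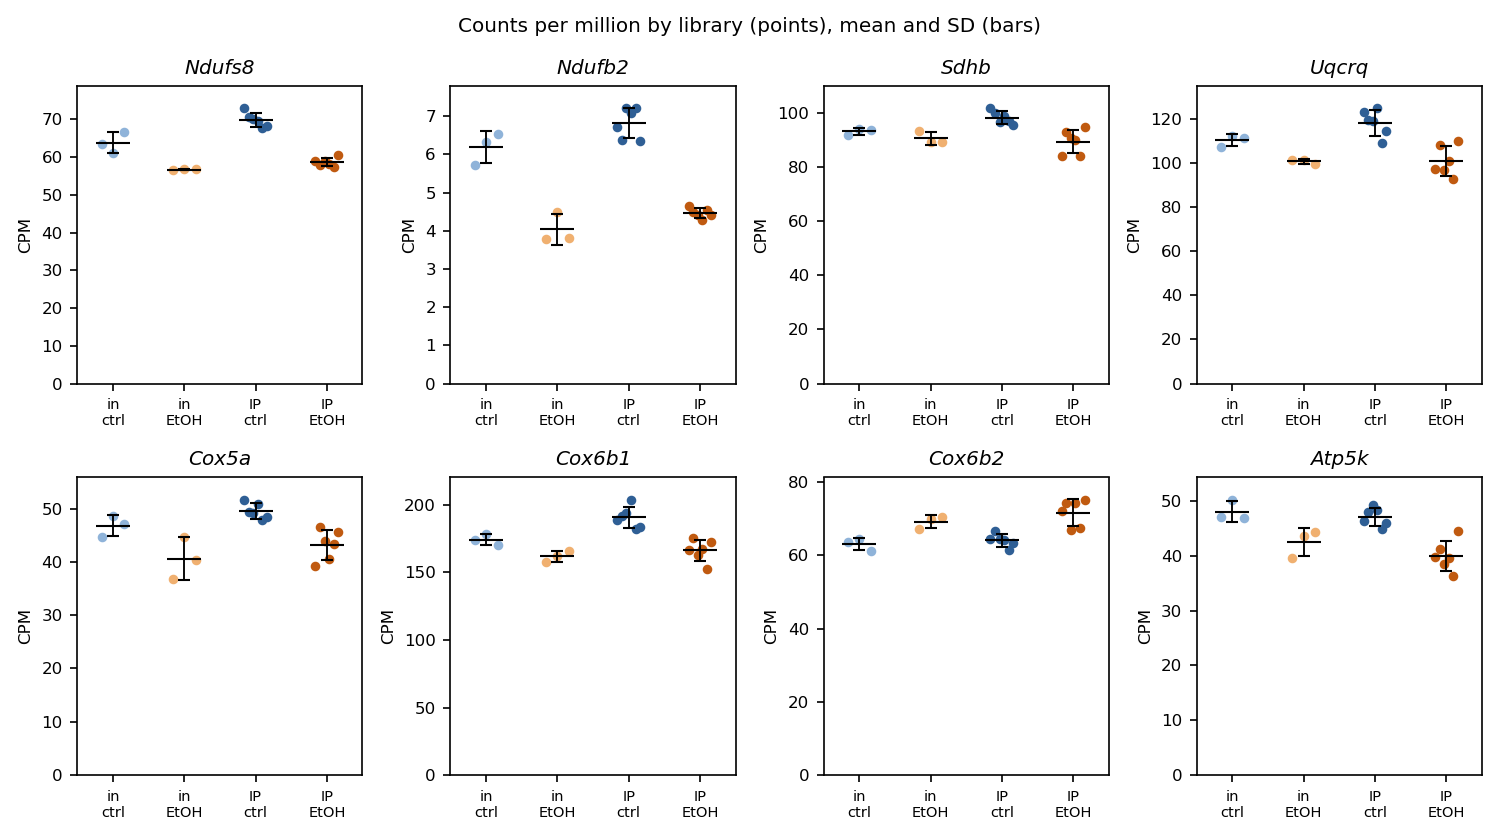
CPM of 8 members in every library (points) with mean and SD (bars), by fraction and treatment (in, input; ctrl, control; EtOH, 50 mM ethanol). In the IP, *Ndufs8*, *Ndufb2*, *Sdhb*, *Cox5a*, *Cox6b1* and *Atp5k* are lower in all 6 ethanol libraries than in any control library, *Uqcrq* overlaps at the edge, and *Cox6b2* is higher in all 6.

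The third comparison asks the same of total RNA. In the input, 45 of 84 members were downregulated by ethanol and 1, *Cox6b2*, was upregulated (edgeR over 6 input libraries), where 7.78% and 7.21% of all genes tested were (10.7% and 9.94% of protein-coding genes). The median log2 fold change was -0.085 for the members and -0.00092 for all genes. Downregulated were 18 members of complex I, 2 of complex II, 5 of complex III, 8 of complex IV and 12 of complex V. Ethanol and control did not overlap in 53 members that were lower and 3 that were higher, where the shares of all genes were 13.1% and 14.0%. The summed level was 9109 ± 40.2 CPM in control input and 8635 ± 36.1 CPM in ethanol input (SD, n = 3 each), without overlap. Of the 46 calls, 31 held whichever library was left out.

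In complex I, *Ndufb2* stood at 5.73, 6.34 and 6.54 CPM in control input and 3.79, 4.50 and 3.81 CPM in ethanol input (-0.62 ± 0.092, adjusted p = 1.12e-09). *Ndufa13* stood at 185, 193 and 187 CPM and 165.1, 161 and 162 CPM (-0.22 ± 0.023, adjusted p = 5.52e-18), and *Ndufs8* at 63.5, 61.2 and 66.7 CPM and 56.5, 56.8 and 56.8 CPM (-0.17 ± 0.031, adjusted p = 6.75e-07). All ethanol values of these 3 genes were below all control values. In complex II, *Sdha* had a log2 fold change of -0.10 ± 0.023 (adjusted p = 0.000162) and *Sdhc* of -0.085 ± 0.024 (adjusted p = 0.00377), the latter lost without ethanol replicate 4 (adjusted p = 0.0715). *Sdhb* (-0.042 ± 0.027, adjusted p = 0.345) and *Sdhd* (-0.0029 ± 0.027, adjusted p = 0.979) did not pass.

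In complex III, *Cyc1* had -0.14 ± 0.028 (adjusted p = 1.43e-05) and *Uqcrb* -0.14 ± 0.033 (adjusted p = 0.000275). In complex IV, *Cox7b* had -0.17 ± 0.027 (adjusted p = 2.89e-08), and *Cox5a* had -0.21 ± 0.036 (adjusted p = 2.56e-07), which did not pass with DESeq2 (adjusted p = 0.0736). In complex V, *Atp5k* had -0.18 ± 0.035 (adjusted p = 5.61e-06) and *Atp5g1* -0.17 ± 0.028 (adjusted p = 4.90e-08). *Cox6b2* stood at 63.8, 64.5 and 61.2 CPM in control input and 67.1, 70.1 and 70.5 CPM in ethanol input, higher in each ethanol library (0.13 ± 0.030, adjusted p = 0.000282).

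In all, 43 members were downregulated by ethanol in both fractions, of 66 so called in the IP and 45 in the input, and 0 members were called in opposite directions. The other 23 downregulated in the IP all had a fitted change below 0 in the input. *Uqcrc1* (-0.10 ± 0.024, adjusted p = 0.000256) and *Atp5g2* (-0.089 ± 0.028, adjusted p = 0.0143) were called in the input and not in the IP. For *Atp5g2* this rests on the fit chosen: in the IP (-0.082, adjusted p = 0.0549) it passed with DESeq2 (adjusted p = 0.0404), the replicate block (0.0161) and the GC and length correction (0.0314), among others, and in the input its call was lost without control replicate 4 (0.0876) or ethanol replicate 4 (0.113). Input and IP of replicates 4 to 6 came from the same dishes, so the fractions are not independent.

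**Figure D5:**
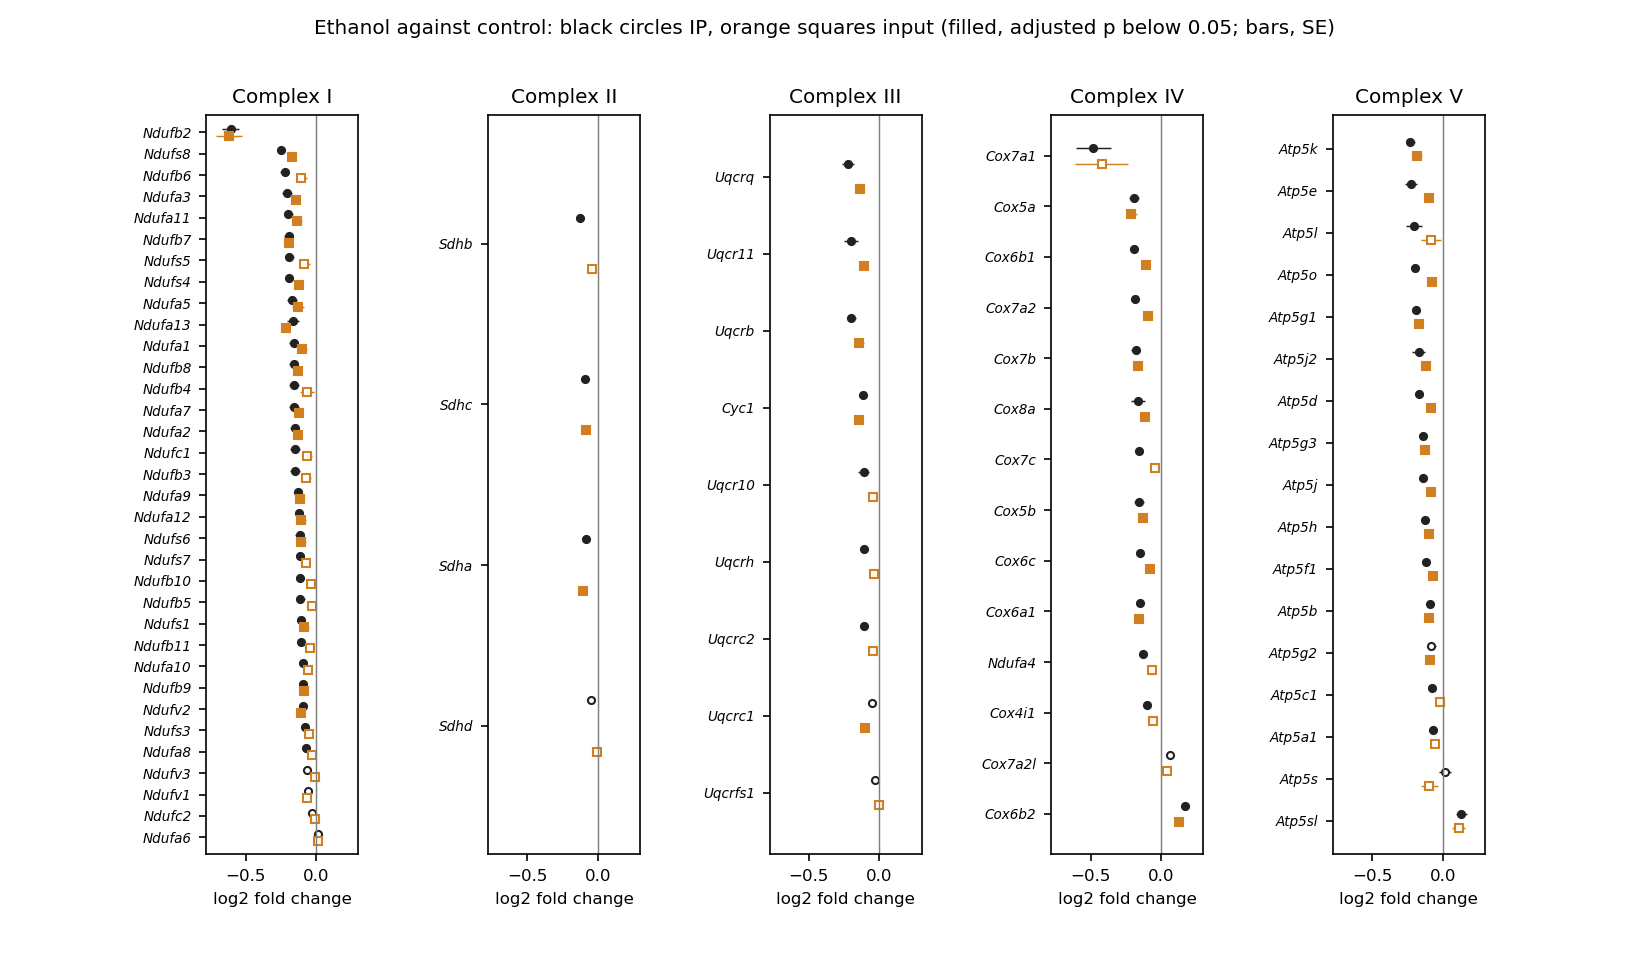
log2 fold change of ethanol against control for 78 of the 79 members with at least 1 CPM, by complex, in the IP (black circles) and the input (orange squares), with SE (bars) and symbols filled where the adjusted p is below 0.05. Most members lie below 0 in both fractions, and *Ndufa6*, *Cox6b2*, *Cox7a2l* and *Atp5sl* lie above 0 in both.

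Whether ethanol acted differently on IP and input was tested directly, and no member passed. With edgeR over 18 libraries the count was 0 of 84, and 0 of all genes, with 10 members and 1459 genes at an unadjusted p under 0.05. DESeq2 called 0 members and 2 genes. With the dish as a block over 12 libraries, edgeR called 0 members and 102 genes, with 13 members and 1897 genes at an unadjusted p under 0.05. The difference, IP minus input, lay below 0 in 72 of 84 members with a median of -0.057 on the log2 scale, and in 59 of 84 with a median of -0.027 with the dish as a block. With the block and with trends of GC content and length removed, the median was -0.0082.

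The longest annotated transcript of the members had a median of 1003 bases, against 3223 bases for all protein-coding genes tested. The ethanol changes of other genes went with length. For the 79 members with at least 1 CPM, the Pearson r with the log2 length of the principal transcript was 0.137 in the IP. In the input it was -0.053. In the IP, among protein-coding genes with at least 1 CPM, the median log2 fold change under 750 bases was -0.16 for 18 members and -0.11 for 142 other genes. From 1500 to below 2500 bases it was -0.092 for 18 members and -0.018 for 2313 other genes, and from 2500 to below 4000 bases -0.11 for 7 members and 0.014 for 3985 other genes. The members lay below the other genes in each of the 6 length classes.

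With the trends of GC content and transcript length removed from each library, 49 members were downregulated and 5 upregulated in the IP, at a median of -0.079, and 33 were downregulated and 3 upregulated in the input, at a median of -0.061. In the IP, 48 of the 66 members were called again, among them *Ndufs8* (-0.19), *Sdhb* (-0.079), *Uqcrq* (-0.18), *Cox5a* (-0.15) and *Atp5k* (-0.14). The calls of *Cox4i1*, *Ndufv2*, *Ndufs3* and *Atp5c1* in the IP were lost, at adjusted p = 0.127, 0.229, 0.647 and 0.121. Upregulated after the correction in the IP were *Ndufa6*, *Ndufc2*, *Cox6b2*, *Cox7a2l* and *Atp5sl*.

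Promoter sequences of the members are given as a description, and a link to the ethanol changes was not tested. RefSeq promoter windows (GRCm38.p6, 250 bases before to 50 bases after each start) were matched by symbol for 66 of the 85 members, in 71 windows. The motif of the transcription factor NRF1, written as GCGCA and GCGC with any 1 base between them, was found on either strand in 25.4% of member windows and 4.60% of all 32851 windows. All windows here include those of genes not read in these cultures. CCGGAAG, the core of the ETS motif that GABP binds, was in 22.5% of member windows and 8.86% of all, and AAGATGGC, bound by YY1, in 12.7% and 2.75%. Of the 66 members, 36 had at least 1 of these 3 motifs.

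A match is a description of the letters only. Downregulated by ethanol in the IP were 13 of 17 members with the NRF1 letters and 41 of 48 without, 15 of 16 with the ETS letters and 39 of 49 without, and 9 of 9 with the YY1 letters and 45 of 56 without. A few stretches from members of each complex are shown, read 5′ to 3′ on the strand of its gene, with the motif in capitals. *Atp5k* (chr5:108434415-108434474, minus strand) and *Sdha* (chr13:74350304-74350363, minus strand) hold the NRF1 letters, *Cox6b1* (chr7:30626115-30626167, minus strand, motif on the opposite strand), *Uqcr11* (chr10:80406856-80406912, minus strand) and *Ndufb7* (chr8:83566713-83566757, plus strand) the ETS letters, and *Atp5j* (chr16:84835032-84835089, minus strand) those of YY1.
Atp5k: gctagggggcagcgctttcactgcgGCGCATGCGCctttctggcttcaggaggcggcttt
Sdha: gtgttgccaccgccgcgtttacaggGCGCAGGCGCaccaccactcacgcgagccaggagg
Cox6b1: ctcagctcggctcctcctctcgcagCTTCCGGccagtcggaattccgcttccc
Uqcr11: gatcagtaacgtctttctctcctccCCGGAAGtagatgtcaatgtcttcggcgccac
Ndufb7: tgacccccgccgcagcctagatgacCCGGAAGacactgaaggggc
Atp5j: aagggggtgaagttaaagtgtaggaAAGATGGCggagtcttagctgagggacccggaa

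Factors that assemble the complexes were also examined. Of 17 complex I assembly factors listed, *Dmac1* and *Dmac2* were not found under these symbols, and 15 were tested. *Dmac2* is the newer symbol of *Atp5sl*, which was counted above as a member by its older name and was upregulated in the IP. It is not among these 15. Of these 15, 5 were downregulated by ethanol in the IP and 0 in the input. They were led in the IP by *Ndufaf5* (-0.16 ± 0.049, adjusted p = 0.0111) and *Ndufaf8* (-0.15 ± 0.045, adjusted p = 0.0120). Of 20 complex IV factors, 6 were downregulated in the IP, led by *Cox18*, which inserts COX2 into the membrane (-0.29 ± 0.048, adjusted p = 2.55e-06), and *Pet100* (-0.26 ± 0.045, adjusted p = 7.84e-06), and in the input 2 were downregulated and 1 upregulated. In the IP, 1 of 6 complex III factors, *Uqcc2* (-0.23 ± 0.032, adjusted p = 8.42e-08), 1 of 4 complex V factors, *Tmem70* (-0.093 ± 0.030, adjusted p = 0.0193), and 0 of 4 complex II factors were downregulated. Whether these shares differ from that of the subunits was not tested.

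Of 8 other carriers and regulators, 6 were downregulated in the IP and 4 in the input, led by *Cycs*, the cytochrome c that links complexes III and IV (-0.29 ± 0.032, adjusted p = 1.09e-10, in the IP), and *Etfb*, an electron transfer flavoprotein (-0.26 ± 0.078, adjusted p = 0.0117). All 13 genes of the tricarboxylic acid cycle were higher in IP vs. input, with a median log2 fold change of 0.22. Ethanol downregulated 10 of them in the IP and 8 in the input, led in the IP by *Fh1*, fumarate hydratase (-0.15 ± 0.026, adjusted p = 6.94e-06), and *Suclg1*, a subunit of succinyl-CoA ligase (-0.14 ± 0.025, adjusted p = 8.58e-06). Of 13 genes of coenzyme Q synthesis, 3 were upregulated and 3 downregulated in the IP, led by *Coq8a* (0.27 ± 0.036, adjusted p = 3.32e-08) and *Coq7* (-0.26 ± 0.038, adjusted p = 2.52e-07).

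Among 11 transcriptional regulators of respiratory genes, 2 were upregulated and 1 downregulated by ethanol in the IP. *Pprc1*, a coactivator of the PGC-1 family, had -0.21 ± 0.036 (adjusted p = 7.89e-06) in the IP and -0.24 ± 0.039 (adjusted p = 8.32e-08) in the input. *Ppargc1a*, the PGC-1 alpha gene, had 0.14 ± 0.035 (adjusted p = 0.00205) and the GABP subunit *Gabpa* 0.096 ± 0.028 (adjusted p = 0.00771) in the IP. *Nrf1* (-0.0038 ± 0.036, adjusted p = 0.965) and *Yy1* (0.018 ± 0.024, adjusted p = 0.686), named with the motifs above, did not pass in the IP. Of the 13 subunits encoded in mitochondrial DNA, 0 were called with ethanol in the IP, where their median log2 fold change was -0.16. In the input, 6 were upregulated and 0 downregulated, at a median of 0.093. As given above, these RNAs were far lower in the IP than in the input.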

How the data were processed

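Translating and total RNA of astrocyte dishes was sequenced from stranded, rRNA-depleted libraries. Per the labels and methods, the authors used Trimmomatic for trimming and STAR for alignment (GRCm38), and read pairs with 1 mapping place were counted per gene; versions are not given in the sources used here. The deposited values are raw counts per gene, without regard to strand in the main table and by strand in the library files (95.5 to 95.8% of stranded counts were sense). From them, genes with at least 10 reads over 18 libraries were tested with edgeR 4.0.16 in R 4.3.3 (TMM, quasi-likelihood, Benjamini-Hochberg over all 24495 genes, threshold 0.05); the scripts were tested on simulated data. SE is the log2 fold change divided by the root of F. IP vs. input was fitted over 18 libraries with treatment as a covariate, ethanol within each fraction, and their difference as an interaction. DESeq2 1.42.0, other scalings and filters, strand counts, left-out libraries, blocks and a correction of GC and length trends were alternatives. Lengths came from GENCODE M21. Genes named were the 2 largest called changes per complex and comparison, fixed core subunits, paralogs, and highest and lowest levels; members named otherwise, such as *Ndufb6*, *Ndufc2*, *Ndufb7*, *Atp5j* and *Atp5sl*, were chosen after their values were seen. The values of 1 core subunit are not reported here, though it is counted with its complex. The members and gene lists were chosen with earlier results of these data known.

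In the labels, nothing but the number links same-numbered dishes of the 2 treatments. Deviations of same-numbered control and ethanol IP libraries correlated at -0.112 to 0.266, with replicate 5 the highest. Those of differently numbered IP libraries correlated at -0.263 to 0.246. In the input these ranges were 0.0308 to 0.0695 and -0.0726 to 0.0330. Whether same-numbered dishes were handled together was not tested. IP and input of replicates 4 to 6 share a dish per the labels, and the correlation of their deviations was 0.0495 to 0.0792 in control and 0.0292 to 0.164 in ethanol dishes.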

Additional observations from a re-analysis of the deposited data

Results flagged for a closer look

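In each group of 6 IP libraries, the named members were searched for a library far from the others (82 groups of 41 genes, Dixon's 95% critical value), and 2 groups were found, where chance gives about 1 in 20. *Ndufv2* was at 77.99 CPM in ethanol replicate 5 of the IP, below the other 5 at 84.8 to 86.5 CPM. *Sdhd* was at 88.8 CPM in ethanol replicate 2 of the IP, above the other 5 at 81.4 to 83.9 CPM.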

How the results depend on the processing

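No called member changed sign in any left-out-library fit; the median of IP vs. input, near 0, was -0.0107 and turned to 0.0003 without input ethanol replicate 6. For IP vs. input, total counts gave 13 members higher at a median of -0.0615, and a test against 1.2-fold gave 5 higher and 10 lower. With the dish as a replicate block, 20 were higher and 30 lower. For ethanol in the IP, the test against 1.2-fold gave 0 upregulated and 1 downregulated. The GC and length correction gave 5 upregulated at a median of -0.0794, and -0.079 with 5 upregulated when the replicate number was also a block. The block alone gave 3 and 67, replicates 4 to 6 gave 1 and 63, and replicates 1 to 3, added after seeing the data, 1 and 53. For ethanol in the input, total counts gave 2 upregulated, the test against 1.2-fold 0 and 1, and the GC and length correction 3 at a median of -0.0607, or 3 at -0.0606 with the replicate block, which alone gave 1 and 46. In the labels, the replicate number only names the dishes of the ethanol comparisons. For the difference between fractions, the dish block with the correction gave a median of -0.0082. The cause of these differences was not tested.

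With each library left out in turn, IP vs. input had 21 to 27 members higher and 27 to 31 lower (median -0.02 to 0.0003), ethanol in the IP 2 to 3 upregulated and 63 to 68 downregulated (median -0.1496 to -0.1219), ethanol in the input 1 to 2 and 35 to 46 (median -0.1031 to -0.0782), and the difference 0 (median -0.0657 to -0.0371). Of the upregulated in the input, 2 were found without control replicate 6 or ethanol replicate 4. Median levels per kb of the longest transcript were 62.2, 72.9, 78.5, 121 and 86.5 CPM for complexes I to V, and per kb of the principal transcript, added after seeing the data, 62.7, 75.8, 86.5, 172 and 123 CPM.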
